A study of Mus musculus with 4 samples.

Results

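The genes described here are 10 genes that mark alveolar type 2 cells, the cuboidal cells of the lung alveolus that make surfactant. They were taken by name from the deposited expression table, and all 10 were found among its 21931 genes and passed the filter on low counts. They comprise the surfactant proteins Sftpa1, Sftpb, Sftpc and Sftpd, the genes Abca3, Lamp3, Napsa, Slc34a2 and Lpcat1 for lamellar bodies, surfactant lipid and phosphate, and the transcription factor gene Etv5. Lungs came from C57BL6 mice aged 2 months that received no further treatment, and their RNA was sequenced. The 4 libraries comprised 1 wild-type library, 2 labelled Dnah9 knockout (knockout 1 and knockout 2) and 1 of genotype Hez, an abbreviation kept here as written because its meaning is not stated. Dnah9 encodes a heavy chain of the ciliary outer dynein arms, and the sources used here do not say which exons were removed. The labels name no agent, no transgene and no other allele.

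Surfactant is a film of phospholipid and protein that lowers surface tension at the air-liquid interface and keeps alveoli from collapsing. Type 2 cells assemble its phospholipid and the hydrophobic proteins SP-B and SP-C in lamellar bodies, which are secretory organelles related to lysosomes. The collectins SP-A and SP-D bind microbes and help clear them. SP-C is made by type 2 cells, whereas club cells of the airways also make SP-A, SP-B and SP-D. In whole lung tissue, fewer cells of a type and less RNA per cell cannot be told apart.

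Library totals ranged from 15860478 to 16553480 reads. Dnah9 had 917 reads in wild type, 420 in Hez and 240 and 254 in knockout 1 and 2. Mitochondrially encoded genes took 3.02% to 3.36% of the reads. The tissue label was checked against 15 further type 2 markers, none of which was at 0 in any library, with Lyz2, which macrophages also express, at 4422 FPKM and Cxcl15 at 881 FPKM in wild type. FPKM is the read count scaled to the length of the gene model and to the library total. Sftpc ranked second of all genes by FPKM in every library.

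Together the 10 genes held 2.55% of the reads in wild type, 2.61% in Hez, 2.96% in knockout 1 and 2.83% in knockout 2. Their summed CPM, the read count scaled to the TMM-adjusted library total, stood at 103% of wild type in Hez, 118% in knockout 1 and 111% in knockout 2. Both knockout libraries thus lay above both reference libraries in the summed level, and Hez lay closer to wild type than to either knockout.

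The genes differed far more from each other than any of them differed between libraries. Sftpc stood at 11836 FPKM in wild type, 12248 in Hez, 13323 in knockout 1 and 13351 in knockout 2. Sftpb followed at 1631 to 1878 FPKM and Sftpa1 at 1333 to 1651 FPKM. Their ranges over the 4 libraries overlapped, though Sftpb was the higher within each library. Slc34a2 came next at 618 to 732 FPKM. Below it Sftpd, at 287 to 410 FPKM, and Lamp3, at 248 to 308 FPKM, also overlapped, with Sftpd the higher within each library. Lpcat1 (108 to 131 FPKM) and Napsa (73.5 to 95.9 FPKM) were separate from their neighbours, while Abca3 (50.3 to 59.8 FPKM) and Etv5 (44.1 to 56.0 FPKM) overlapped at the lower end. Etv5 exceeded Abca3 in knockout 2 only. Sftpc alone made up 72.6% of the summed FPKM of the 10 genes in wild type, 73.3% in Hez, 71.5% in knockout 1 and 73.4% in knockout 2, so the composition of the group was nearly the same in all 4 libraries. Sftpd had the most uneven share among the surfactant proteins, at 1.90% in wild type, 1.72% in Hez, 2.20% in knockout 1 and 1.85% in knockout 2.

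**Figure D1:**
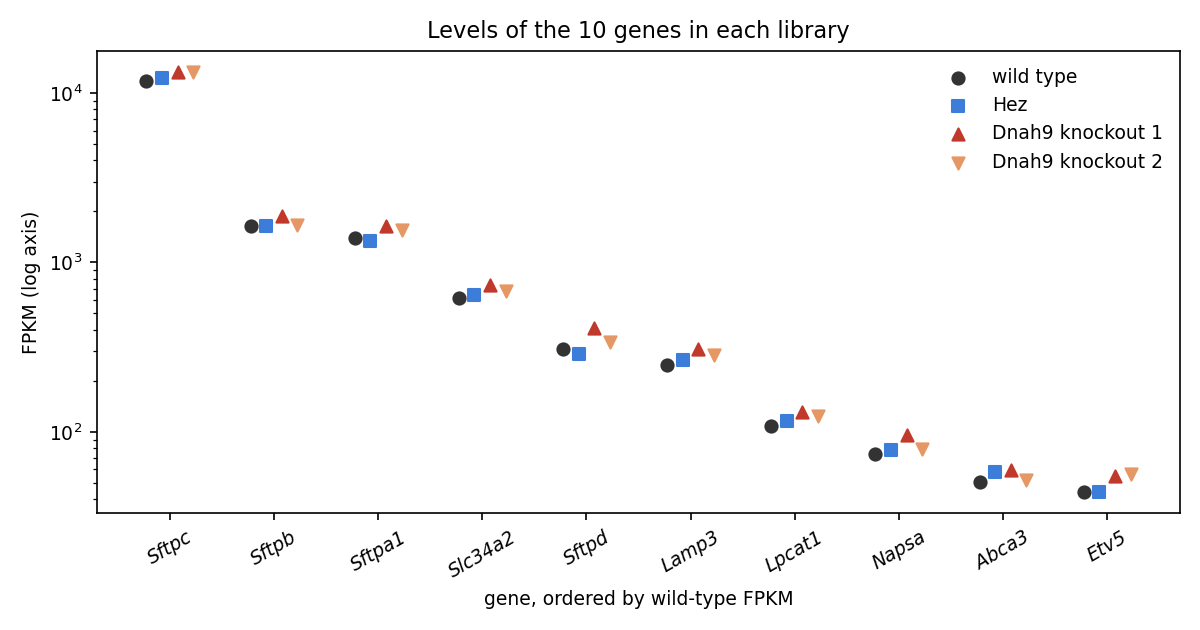
FPKM of each of the 10 genes (horizontal axis, ordered by wild-type level) on a log axis, with 1 point per library: wild type (circle), Hez (square), Dnah9 knockout 1 (upward triangle) and knockout 2 (downward triangle). The levels span from 44.1 FPKM (Etv5 in wild type and Hez) to 13351 FPKM (Sftpc in knockout 2), and the 4 points of a gene lie close together on this scale.

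Surfactant protein genes were higher in both knockout libraries than in the wild-type and Hez libraries, by modest amounts that did not pass the test over all genes. Sftpc (ENSMUSG00000022097, chromosome 14, 70758389 to 70761521 on GRCm39, minus strand), the gene of the small hydrophobic surfactant protein SP-C, stood at 12164 CPM in wild type, 12682 in Hez, 13872 in knockout 1 and 13775 in knockout 2. The knockout libraries were nearly equal and did not overlap with the other two. Its log2 fold against wild type was 0.18 (SE 0.0444, 95% interval 0.08 to 0.29, n = 2 against 1, edgeR adjusted p = 0.449), which is a ratio of 1.14. The exact Poisson interval (95%) around the wild-type value ran from 12111 to 12218 CPM, and it covers counting error only, not the spread between mice.

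Sftpa1 (ENSMUSG00000021789, chromosome 14, 40853739 to 40858409, plus strand) and Sftpd (ENSMUSG00000021795, chromosome 14, 40894171 to 40907106, minus strand) encode the collectins SP-A and SP-D and lie 35.8 kb apart. Sftpa1 stood at 3952 CPM in wild type, 3818 in Hez, 4755 in knockout 1 and 4428 in knockout 2. Sftpd stood at 744 CPM in wild type, 696 in Hez, 999 in knockout 1 and 812 in knockout 2. These 2 genes shared an order of libraries found in none of the other 8 genes: knockout 1 highest, then knockout 2, then wild type, and Hez lowest. Mbl1, the collectin gene between them on the chromosome, had 41 to 52 reads per library. Against wild type the log2 fold was 0.22 for Sftpa1 (SE 0.0635, edgeR adjusted p = 0.632) and 0.28 for Sftpd (SE 0.12, edgeR adjusted p = 0.947). The Sftpd libraries of the knockout group were 0.30 apart on the log2 scale, as far apart as the fold itself.

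Sftpb (ENSMUSG00000056370, chromosome 6, 72281594 to 72291354, plus strand) encodes SP-B, the saposin-like protein without which lamellar bodies do not mature. It stood at 3278 CPM in wild type, 3322 in Hez, 3823 in knockout 1 and 3367 in knockout 2. Knockout 1 was the high library, and knockout 2 lay 0.04 above wild type on the log2 scale. The exact Poisson intervals (95%) of Hez and knockout 2 overlapped, at 3294 to 3350 and 3338 to 3395 CPM. The log2 fold of 0.13 (SE 0.0802, 95% interval -0.05 to 0.32, edgeR adjusted p = 0.996) was the smallest of the 10 against wild type.

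Of the 10 genes, 7 had a promoter window in the RefSeq table of build GRCm38.p6, running from 250 bases before to 50 after the annotated start: Sftpa1, Sftpb, Abca3, Lamp3, Slc34a2, Lpcat1 and Etv5, the last with 2 windows. They were searched on both strands for the letters bound by NKX2-1, the transcription factor of lung epithelium, as GCNCTNNAG and CTCAAG, the latter of which can lie within the former. Each was found in the windows of Sftpa1 and Sftpb and in none of the other 6 windows. Over all 32851 windows, 17.5% held GCNCTNNAG and 15.9% held CTCAAG. The windows of the surfactant protein genes are shown with those of Abca3 and Etv5, whose order of libraries differed from most members, on the gene's own strand with NKX2-1 letters in capitals. They are chr14:41131538-41131837 (plus), chr6:72304360-72304659 (plus), chr17:24351773-24352072 (plus) and chr16:22439521-22439820 (minus).
Sftpa1: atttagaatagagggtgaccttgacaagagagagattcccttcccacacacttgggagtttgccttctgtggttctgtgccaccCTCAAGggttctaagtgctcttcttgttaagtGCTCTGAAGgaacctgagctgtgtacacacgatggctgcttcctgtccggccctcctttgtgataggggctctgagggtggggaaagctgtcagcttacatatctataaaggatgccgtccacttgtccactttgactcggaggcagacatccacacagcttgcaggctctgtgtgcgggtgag
Sftpb: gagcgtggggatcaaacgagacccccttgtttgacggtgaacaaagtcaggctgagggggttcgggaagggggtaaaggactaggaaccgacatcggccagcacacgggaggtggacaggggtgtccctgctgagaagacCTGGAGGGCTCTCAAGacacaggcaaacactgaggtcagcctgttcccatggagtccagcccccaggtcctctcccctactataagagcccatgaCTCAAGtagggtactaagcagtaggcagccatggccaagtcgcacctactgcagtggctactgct
Abca3: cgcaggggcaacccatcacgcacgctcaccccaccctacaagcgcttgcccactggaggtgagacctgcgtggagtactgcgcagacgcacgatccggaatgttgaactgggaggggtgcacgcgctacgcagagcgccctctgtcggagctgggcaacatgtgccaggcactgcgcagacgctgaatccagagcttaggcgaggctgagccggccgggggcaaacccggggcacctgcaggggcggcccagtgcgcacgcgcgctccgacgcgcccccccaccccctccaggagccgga
Etv5: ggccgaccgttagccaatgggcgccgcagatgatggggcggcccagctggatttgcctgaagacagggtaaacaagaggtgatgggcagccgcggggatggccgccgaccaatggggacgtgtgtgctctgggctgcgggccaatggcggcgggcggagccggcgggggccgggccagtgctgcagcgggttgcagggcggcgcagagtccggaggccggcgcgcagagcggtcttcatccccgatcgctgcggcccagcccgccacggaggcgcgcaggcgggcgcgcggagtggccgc
In Sftpb the capitals join a reverse-strand match starting 110 bases before the start site to a forward one starting 103 bases before it, and a separate CTCAAG starts 15 bases before it. In Sftpa1 the matches start 166 and 134 bases before the start site. Forkhead letters (TGTTTG or TGTTTA) were found in Sftpb, Lamp3 and the shown Etv5 window, and TGTTTG in 18.2% and TGTTTA in 13.4% of all windows. The C/EBP letters TTNNGNAA were found in Sftpb and Slc34a2 and in 40.7% of all windows. TGANTCA, the AP-1 letters, was found in Sftpb (7.81% of all windows), TATAAA in Sftpa1 (13.6%) and the ETS letters CCGGAAG in none of the 8 windows (8.86%). A match is a description of the sequence and not a measured binding site.

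The genes for lamellar bodies, lipid and phosphate stood higher in both knockouts than in wild type, and Hez lay between wild type and knockout 1 for all 5. Lamp3 (ENSMUSG00000041247, chromosome 16, 19472128 to 19525125), a membrane glycoprotein of lamellar bodies, stood at 827 CPM in wild type, 892 in Hez, 1042 in knockout 1 and 953 in knockout 2. Lpcat1 (ENSMUSG00000021608, chromosome 13, 73615316 to 73664541), the acyltransferase that remodels phosphatidylcholine into its surfactant form, stood at 496, 538, 610 and 576 CPM in the same order. Slc34a2 (ENSMUSG00000029188, chromosome 5, 53195423 to 53229006), which takes up phosphate from the alveolar fluid, stood at 3081, 3235, 3697 and 3394 CPM. For these 3 genes the order was wild type, Hez, knockout 2 and knockout 1 from low to high, with no overlap between the knockout and the other libraries. Their log2 folds against wild type were 0.27 for Lamp3 (SE 0.0838, edgeR adjusted p = 0.684), 0.26 for Lpcat1 (SE 0.0854, edgeR adjusted p = 0.765) and 0.20 for Slc34a2 (SE 0.069, edgeR adjusted p = 0.784).

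Napsa was high in knockout 1, and Abca3 in knockout 1 and Hez. Napsa (ENSMUSG00000002204, chromosome 7, 44221804 to 44236286), an aspartic protease that processes the SP-B precursor, stood at 194 CPM in wild type, 208 in Hez, 257 in knockout 1 and 209 in knockout 2. Its Hez and knockout 2 values were within counting error of each other, with exact Poisson intervals of 201 to 215 and 202 to 216 CPM. Abca3 (ENSMUSG00000024130, chromosome 17, 24570924 to 24629175), the transporter that loads phospholipid into lamellar bodies, stood at 469 CPM in wild type, 542 in Hez, 564 in knockout 1 and 484 in knockout 2. It was the single gene of the 10 in which the knockout and reference libraries overlapped, as Hez exceeded knockout 2. Against wild type the log2 fold was 0.26 for Napsa (SE 0.133, edgeR adjusted p = 0.996) and 0.16 for Abca3 (SE 0.107, edgeR adjusted p = 0.996).

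Etv5 (ENSMUSG00000013089, chromosome 16, 22200059 to 22258469) encodes an ETS transcription factor that acts downstream of FGF and RAS-ERK signalling and maintains type 2 cell identity. It stood at 180 CPM in wild type, 181 in Hez, 227 in knockout 1 and 229 in knockout 2. The 2 reference libraries were nearly equal, the 2 knockout libraries were nearly equal, and the pairs did not overlap. Etv5 was also the only gene of the 10 in which knockout 2 exceeded knockout 1. Its log2 fold against wild type was 0.34 (SE 0.0969, 95% interval 0.12 to 0.57, edgeR adjusted p = 0.612), a ratio of 1.27 and the largest of the 10.

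**Figure D2:**
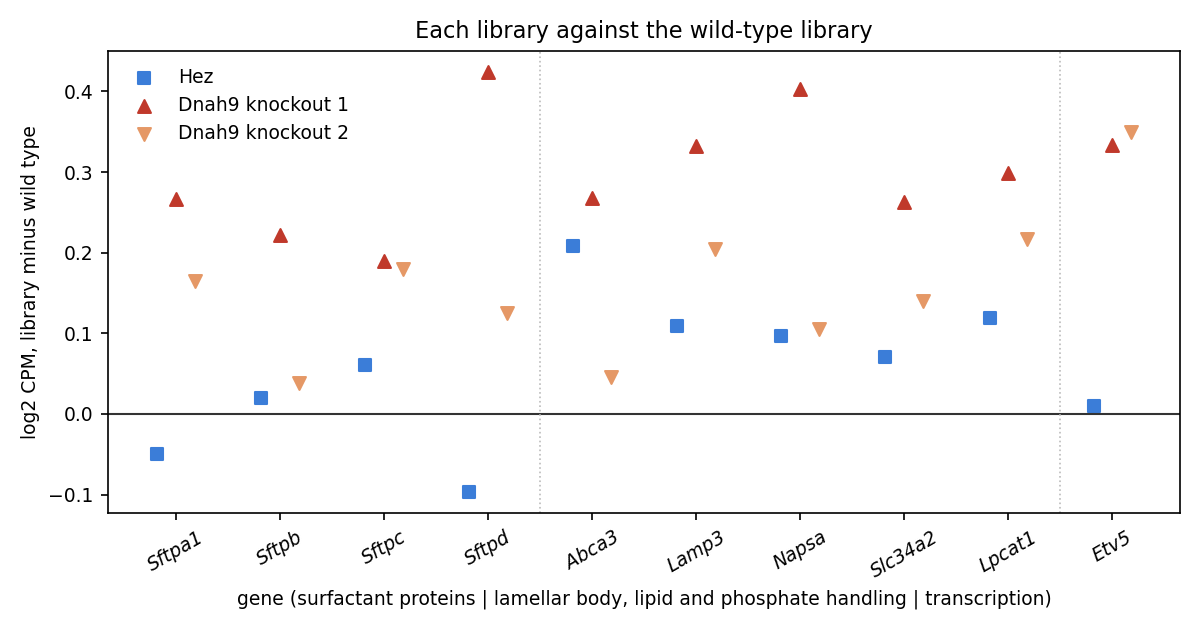
Difference in log2 CPM between each library and the wild-type library (horizontal line at 0) for the 10 genes, with Hez as squares, knockout 1 as upward and knockout 2 as downward triangles. Knockout 1 lies from 0.19 to 0.42 above wild type and knockout 2 from 0.04 to 0.35, whereas Hez lies from -0.10 to 0.21.

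The series compares Dnah9 knockout with wild-type lung, and in this comparison all 10 genes had a log2 fold above 0, with a median of 0.24 against 0.00 over all 15055 genes tested. Of all genes, 51.1% had a log2 fold above 0. The edgeR test called 0 of the 10 genes after adjustment over all genes, where 0.0531% of all genes were called. DESeq2, limma-voom and limma on FPKM values also called 0 of the 10. At an unadjusted edgeR p below 0.05, 7 of the 10 genes were on the higher side (Sftpa1, Sftpc, Sftpd, Lamp3, Slc34a2, Lpcat1 and Etv5), where 1.81% of all genes were. Both knockout libraries lay above wild type for 10 of the 10 genes and for 33% of all genes. The 10 genes were chosen with earlier results of these data known, and they mark 1 cell type. Such counts, here and in the comparisons below, are thus no test of the group, and the genes are not independent results. The edgeR test rests on the 2 knockout libraries and 1 wild-type library. Without knockout 1 the median log2 fold was 0.15, and without knockout 2 it was 0.28.

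Against the Hez library the fold was smaller than against wild type for 8 of the 10 genes and larger for the collectin genes Sftpa1 and Sftpd. The median log2 fold was 0.15, against 0.01 over all genes, and 9 of the 10 folds were above 0, where 52.5% of all genes were. Sftpd (0.38, SE 0.12), Etv5 (0.33, SE 0.0969) and Sftpa1 (0.27, SE 0.0636) had the largest folds, and Abca3 was at -0.05 (SE 0.106, 95% interval -0.29 to 0.20). The edgeR test called 0 of the 10 genes (adjusted p of at least 0.705), where 0.00664% of all genes were called, and 4 had an unadjusted p below 0.05 on the higher side, where 2.5% of all genes did. None of the 5 genes for lamellar bodies, lipid and phosphate was among those 4. Both knockout libraries lay above Hez for 9 of the 10 genes and for 34.2% of all genes. Both comparisons use the same knockout libraries, so they are not independent of each other. Without knockout 1 the median was 0.09, and without knockout 2 it was 0.21 and Abca3 turned to 0.058.

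With wild type and Hez pooled as the reference, all 10 log2 folds were above 0, as were 49.1% of all folds, and their median was 0.20. In this fit 0 of the 10 genes were called by edgeR, where 0.0136% of all 14674 genes tested were called. Etv5 had the smallest p of the 10, with a log2 fold of 0.33 (SE 0.0692, 95% interval 0.17 to 0.49, unadjusted p = 0.00148, edgeR adjusted p = 0.573). At an unadjusted p below 0.05, 7 of the 10 were on the higher side, where 2.3% of all genes were. Here Abca3 was at 0.05 (SE 0.101), Sftpb at 0.12 (SE 0.0749) and Napsa at 0.21 (SE 0.106), each with an interval that included 0. Both knockout libraries lay above both reference libraries for 9 of the 10 genes, and for 17.5% of all genes. Without knockout 1, Abca3 stood at -0.065.

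**Figure D3:**
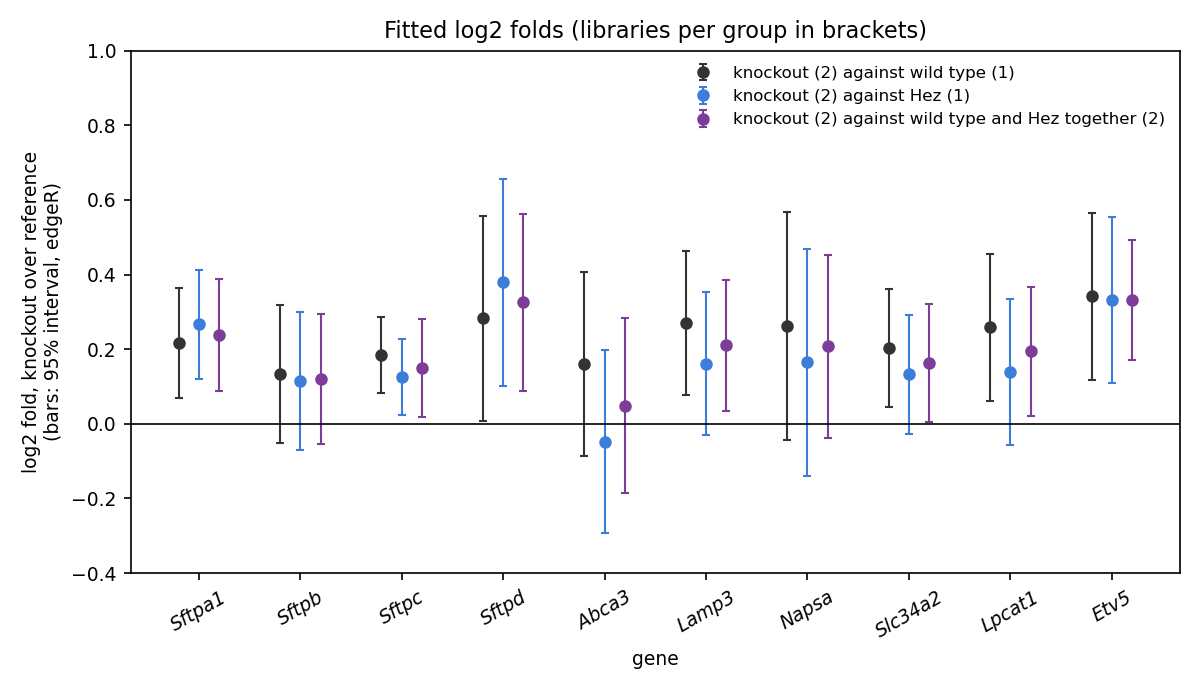
Log2 fold of the 2 knockout libraries over each reference (edgeR, points) with its 95% interval (bars) for the 10 genes, against wild type (black), Hez (blue) and wild type and Hez together (purple). All points lie above 0 except Abca3 against Hez at -0.05 (0.058 without knockout 2), and the intervals of Sftpb, Abca3 and Napsa include 0 in all 3 comparisons. Against Hez the intervals of Lamp3, Slc34a2 and Lpcat1 include 0 as well.

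The 2 knockout libraries were not alike for this group. Knockout 1 was the highest of the 4 libraries in 9 of the 10 genes, where it was so for 24.6% of all genes. It exceeded knockout 2 in the same 9 genes, with a median difference of 0.13 on the log2 scale, whereas 49.7% of all genes were higher in knockout 1. Among all 2395 genes with a mean of at least 100 CPM, the median size of that difference was 0.08. The gap was 0.30 for Sftpd and 0.30 for Napsa, 0.22 for Abca3 and 0.18 for Sftpb, and it was 0.01 for Sftpc and -0.02 for Etv5. For Sftpb, Sftpd, Abca3 and Napsa, knockout 2 lay closer to wild type than to knockout 1. Hez against wild type has 1 library a group and was not tested. There 8 of the 10 genes were higher in Hez, with a median difference of 0.07, and 49.5% of all genes were higher in Hez. The exceptions were the collectin genes Sftpa1 (-0.05) and Sftpd (-0.10), and the highest was Abca3 (0.21).

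Type 2 markers outside the 10 genes mostly lay on the same side. Of 15 such markers, 14 had a log2 fold above 0 against wild type, with a median of 0.18, and 0 were called. Against Hez 12 of the 15 were above 0, with a median of 0.15 and 0 called. Both knockout libraries lay above both reference libraries for 8 of the 15. Chil1, a chitinase-like secreted protein, was at 0.35 (SE 0.0776, edgeR adjusted p = 0.402). Cxcl15, the lung chemokine lungkine, was at 0.27 (SE 0.0638, edgeR adjusted p = 0.445), Hc, complement component C5, at 0.24 (SE 0.0761) and the lysozyme gene Lyz1 at 0.36 (SE 0.128). By library, the median of the 15 markers against wild type was 0.01 in Hez, 0.22 in knockout 1 and 0.12 in knockout 2. The medians of the 10 genes were 0.07, 0.28 and 0.15, so the libraries stood in the same order in both lists.

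Transcription factors of alveolar epithelium did not show that order. Of 7 factors, 4 had a log2 fold above 0 against wild type, with a median of 0.11 and 0 called. Nkx2-1, which activates surfactant protein genes, stood at 196 CPM in wild type, 205 in Hez, 211 in knockout 1 and 243 in knockout 2 (log2 fold 0.21, SE 0.115, edgeR adjusted p = 0.996). Cebpa, a factor of type 2 cell maturation, was at 0.16 (SE 0.121), Foxa2 at 0.17 (SE 0.172) and Srebf1, which drives lipid synthesis, at 0.11 (SE 0.113). By library the median was -0.06 in knockout 1 and 0.14 in knockout 2. FGF and ERK target genes, listed because Etv5 is itself such a target, also split the knockouts, with a median against wild type of -0.11 in knockout 1 and 0.41 in knockout 2. Of these 10 genes 7 had a log2 fold above 0 and 0 were called. Dusp6, the ERK phosphatase, stood at 130 CPM in wild type, 124 in Hez, 112 in knockout 1 and 180 in knockout 2. Of the genes that the naming rule selected, Il17rd was at -0.22 (SE 0.107), Phlda1 at 0.33 (SE 0.234), Spred1 at 0.12 (SE 0.101) and Spry1 at 0.20 (SE 0.166).

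The other steps of surfactant metabolism varied gene by gene. Of 15 lipid synthesis genes, 10 had a log2 fold above 0 against wild type, with a median of 0.01 and 0 called. Elovl1, an elongase of very long fatty acids, stood at 333 CPM in wild type, 366 in Hez, 506 in knockout 1 and 453 in knockout 2 (log2 fold 0.53, SE 0.1, edgeR adjusted p = 0.323). Acsl4, which activates long fatty acids, was at 0.25 (SE 0.103), the fatty acid carrier Fabp5 at 0.22 (SE 0.105) and the elongase Elovl6 at -0.39 (SE 0.206). Of 14 genes of lamellar body biogenesis and surfactant protein processing, 7 were above and 7 below 0, with a median of 0.01 and 0 called. Nedd4l, a ubiquitin ligase, stood at 163 CPM in wild type, 149 in Hez, 128 in knockout 1 and 124 in knockout 2 (log2 fold -0.37, SE 0.0997, edgeR adjusted p = 0.566). P2ry2, the receptor through which ATP stimulates surfactant secretion, was at 0.39 (SE 0.239), Hps5 at -0.14 (SE 0.105) and Ap3b1 at 0.11 (SE 0.1). Of 10 clearance genes 7 were above 0, with a median of 0.14 and 0 called. Csf2rb, the shared chain of the GM-CSF receptor that macrophages need to clear surfactant, was at 0.34 (SE 0.132). Spi1, the macrophage transcription factor PU.1, was at 0.32 (SE 0.137), Adgrf5, a receptor that limits the surfactant pool, at 0.12 (SE 0.0642) and Prdx6 at -0.18 (SE 0.101).

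Markers of other cell types moved between the same libraries. Club cell markers were lower in 11 of 11 genes against wild type, with a median log2 fold of -0.49. The secretoglobin genes Scgb3a1 and Scgb3a2 fell by 1.06 (edgeR adjusted p = 0.00864) and 0.88 (edgeR adjusted p = 0.0365), and the airway defence gene Bpifa1 fell by 1.33 (edgeR adjusted p = 0.021). Muc5b was at -1.03 (edgeR adjusted p = 0.0575). Against Hez 6 of the 11 were higher and 5 lower, with a median of 0.01 and 0 called, and Scgb3a1 stood at 522 CPM in wild type against 189 in Hez, 245 in knockout 1 and 255 in knockout 2. The summed level of the 11 markers was 24870 CPM in wild type, 19717 in Hez, 20627 in knockout 1 and 17865 in knockout 2, with none at 0 in any library. Sftpa1, Sftpb and Sftpd, which club cells also make, stood higher in both knockouts than in wild type, as did Sftpc. The club cell sum stood lower in both knockouts than in wild type, but higher in knockout 1 than in Hez. Scgb1a1 made up most of that sum, at 16730 CPM in wild type, 13356 in Hez, 14770 in knockout 1 and 12084 in knockout 2. By library the median of the 11 markers against wild type was -0.38 in Hez, -0.80 in knockout 1 and -0.47 in knockout 2. That is another order of libraries than that of the sum. Multiciliated cell markers, also lower in 10 of 10 genes with a median of -0.52 and 0 called, summed to 614 CPM in wild type and 408 to 435 CPM in the other libraries. Against Hez 9 of these 10 were higher, with a median of 0.12 and 0 called, so for the multiciliated list wild type was the library that stood apart. The club cell markers were less uniform against Hez, with 2 higher and 2 lower at an unadjusted edgeR p below 0.05. Against wild type Cdhr3 was at -0.60, Foxj1 at -0.55, Hydin at -0.54 and Ccdc153 at -0.53.

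Alveolar type 1 and general epithelial markers gave sums in another order of libraries than the 10 genes. The type 1 sum of 9 markers was 5459 CPM in wild type, 6204 in Hez, 5676 in knockout 1 and 5801 in knockout 2, with 7 of 9 log2 folds above 0, a median of 0.07 and 0 called (Aqp5 0.20, Akap5 0.14, Igfbp2 0.33 and Clic5 0.07). The general epithelial sum of 11 markers was 1905, 1864, 1908 and 1975 CPM in that order, with 4 of 11 folds above 0, a median of -0.06 and 0 called (Cldn7 -0.28, Cldn3 0.19, Krt8 -0.16 and Cldn18 0.13). Against Hez both lists turned. There 9 of the 11 general epithelial markers were higher, with a median of 0.13 and 0 called. Of the 9 type 1 markers 3 were higher and 6 lower against Hez, with a median of -0.12 and 0 called. Alveolar macrophage markers were above 0 in 12 of 12 genes against wild type, with a median of 0.15 and 0 called. Against Hez 12 of 12 were above 0 as well, with a median of 0.40 and 0 called. Both knockout libraries lay above both reference libraries for 8 of the 12. By library the macrophage median against wild type was -0.17 in Hez, 0.20 in knockout 1 and 0.17 in knockout 2. That is the order of libraries seen in the 10 genes. The macrophage sum was 899 CPM in wild type, 859 in Hez, 1139 in knockout 1 and 1469 in knockout 2, and the chitinase-like gene Chil3 made up most of it. Chil3 had a log2 fold of 0.76 (SE 0.181, edgeR adjusted p = 0.445), Krt79 of 0.41, Itgax of 0.33 and Ear2 of 0.26. Immediate early genes, which respond within minutes to tissue handling, summed to 794 CPM in wild type, 1262 in Hez, 1207 in knockout 1 and 1685 in knockout 2. Of these 10 genes 1 was called, Zfp36, which rose by 0.91 (edgeR adjusted p = 0.0365), and Junb was at 0.90, Nr4a1 at 1.76 and Dusp1 at 0.93. The part of any of these cell types, or of handling, in the levels of the 10 genes was not tested.

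**Figure D4:**
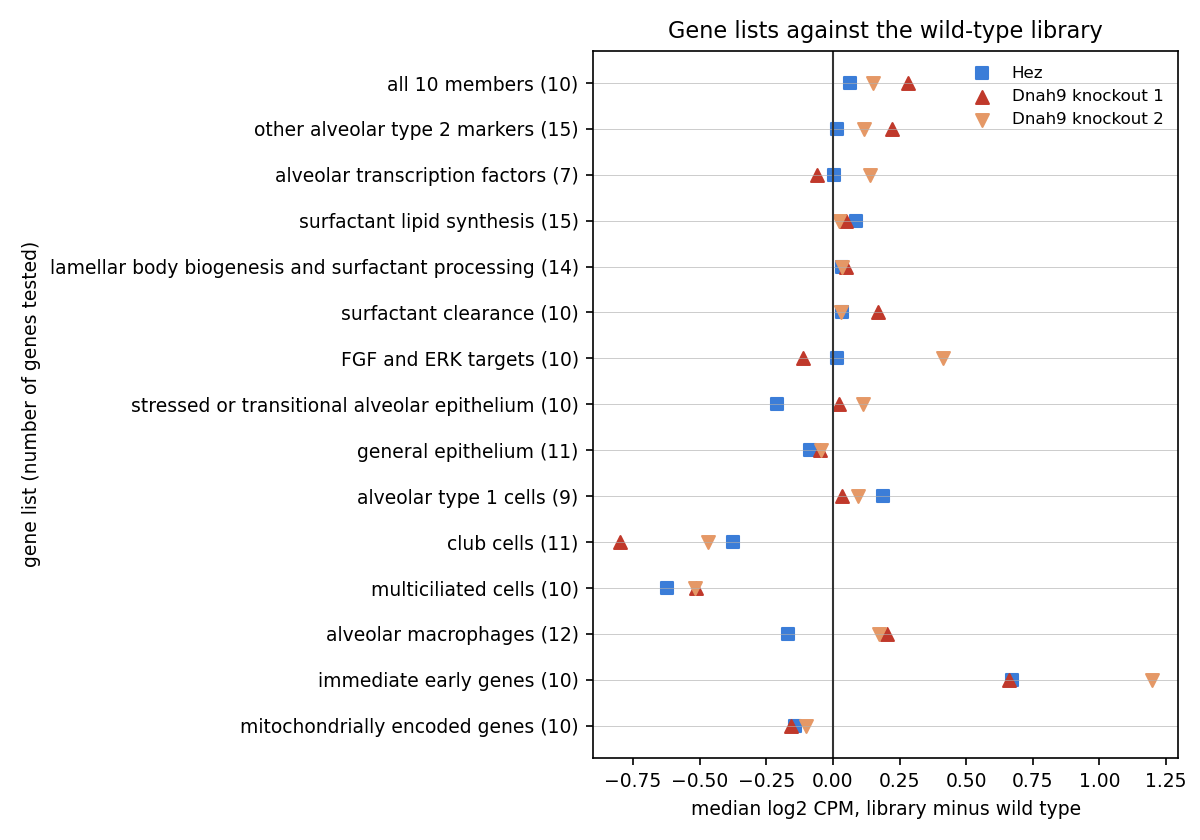
Median difference in log2 CPM between each library and the wild-type library for the 10 genes (top row) and 14 other gene lists, with the number of genes tested in brackets and symbols as in the plot of single genes. The 10 genes lie in the order Hez, knockout 2, knockout 1. The other type 2, alveolar macrophage and lamellar body biogenesis lists share it, the last with nearly equal medians. The club, multiciliated, general epithelial and mitochondrial lists lie below 0 in all 3 libraries, and the immediate early genes lie above 0 in all 3.

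The genes outside the group whose profile over the 4 libraries lay nearest to the mean profile of the 10 were Fabp5, Tmem33, Trpm6, Plin3 and Dhrs3. Likeness was the root mean square distance between log2 CPM values centred on the gene's own mean, among 4882 other genes with a mean of at least 50 CPM. The mean profile was -0.13 in wild type, -0.07 in Hez, 0.17 in knockout 1 and 0.03 in knockout 2. Fabp5, the nearest, was at a distance of 0.0161 and stood at 78.1 CPM in wild type, 81.8 in Hez, 94.3 in knockout 1 and 87.6 in knockout 2. Among the 10 genes themselves the distance ran from 0.0197 for Slc34a2 to 0.0982 for Sftpd, with Abca3 (0.0962) and Etv5 (0.0896) next to Sftpd. As many as 1141 of the 4882 genes, or 23.4%, lay within that largest distance, a wide limit set by the least alike member. The median distance of the 10 genes was 0.0485, and the other genes within it were not counted. Whether this profile over 4 libraries sets the group apart was therefore not tested.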

How the data were processed

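The authors deposited a table of raw read counts per gene for 4 lung libraries (TruSeq kit, Illumina HiSeq, per the labels' protocols), with coordinates on GRCm39, per the submitters' processing notes. The FPKM values deposited by the authors equal count over library total and gene length for all 66024 values above 0 (relative tolerance 1e-06). The aligner, the counter, the annotation and the use of strand were not given in the sources used here. No other gene of the table overlaps any of the 10 genes.

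Counts were scaled by TMM (factors 0.993 to 1.01), filtered with filterByExpr (minimum count 10) and tested two-sided with edgeR 4.0.16 (quasi-likelihood) in R 4.3.3, in 3 groups (1 residual degree of freedom) or 2 groups (2), with Benjamini-Hochberg adjustment over all genes and a threshold of 0.05. Spread was moderated toward all genes (7.02 and 5.72 prior degrees of freedom), and lone libraries were assumed to vary like the knockouts. No label says whether the samples stem from separate litters or runs, so the spread behind each p-value may be technical. Library differences used log2 CPM with a prior count of 2. The edgeR tests were tried on simulated data with larger folds than those of the 10 genes. The simulation thus does not show whether folds as small as theirs would be called.

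The 10 genes and all lists were chosen with earlier results of these data known. Named besides them were Dnah9, list genes past the threshold or among the 4 smallest p against wild type in their list, and the 5 nearest profiles. Lyz2, Mbl1, Dusp6 and Scgb1a1 were named outside this rule, after their values were seen. Alternatives used DESeq2 1.42.0, limma 3.58.1 (voom, or log2 FPKM with pseudocounts), other scalings and filters, and each library left out. Promoters came from RefSeq (GRCm38.p6), a build other than that of the counts.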

Additional observations from a re-analysis of the deposited data

How the results depend on the processing

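Under every alternative of the test, scaling and filter, 0 of the 10 genes were called in each comparison, and leaving out libraries also gave 0 where a test was possible. Abca3 against both references changed sign without knockout 1 (-0.065) and without wild type (-0.052), and against Hez without knockout 2 (0.058). Against both it had a range of -0.065 to 0.16 over the libraries left out. Leaving wild type or Hez out of the pooled reference leaves the comparison with the other alone. Those values and counts therefore restate that comparison and are no separate check of the pooled fit. Leaving out single libraries, the median log2 fold of the 10 genes ranged from 0.15 to 0.28 against wild type, 0.09 to 0.21 against Hez and 0.15 to 0.26 against both. Of all genes, 8 were called against wild type (14 with DESeq2, 4 with no filter, 4 at a mean of 10 CPM, and 1 with limma on log2 FPKM at each of the pseudocounts 0.5, 0.1 and 1). Against Hez 1 was called (7 with DESeq2, and 0 with limma on log2 FPKM at 0.5 and at 0.1). Against both 2 were called (22 with DESeq2, 1 at a mean of 10 CPM, 1 with limma-voom, and 1, 1 and 0 with limma on log2 FPKM at 0.5, 0.1 and 1). Leaving out libraries gave 107 without knockout 1, 24 without knockout 2, 8 without Hez and 1 without wild type, a range of 1 to 107, and 8 and 1 in the other comparisons. The cause was not tested. Without 1 knockout library, the comparisons with wild type or Hez alone have no residual degree of freedom and give values with no test. No paired analysis was possible because the labels give nothing, such as a litter or run, that links samples into pairs. Counting error was at most 3.70% of a value for the 10 genes, and the number of libraries limits the precision.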

Other observations

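A list of genes of stressed or transitional alveolar epithelium, the state that type 2 cells pass through after injury, was measured beside the 10 genes. Against wild type, 8 of its 10 genes had a log2 fold above 0, with a median of 0.08 and 0 called by edgeR, and 1 had an unadjusted p below 0.05, Krt19, at -0.27 (SE 0.107, edgeR adjusted p = 0.896). Lcn2, a secreted antimicrobial protein, was at 0.25 (SE 0.186), Sprr1a at 0.66 (SE 0.575) and Lgals3, galectin-3, at 0.11 (SE 0.105). The summed level was 748 CPM in wild type, 658 in Hez, 799 in knockout 1 and 703 in knockout 2, so the knockout libraries lay on either side of wild type and both above Hez. Against Hez, 9 of the 10 genes had a log2 fold above 0, with a median of 0.23, 0 called by edgeR and 4 with an unadjusted p below 0.05 on the higher side. Krt19 was at 0.29 (SE 0.109) and Lgals3 at 0.54 (SE 0.108) there, so Krt19 differed in sign between the comparisons.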
